A study of Mus musculus with 15 samples.

Results

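The transcripts of 10 glycolytic enzymes, Hk2, Gpi1, Pfkp, Aldoa, Tpi1, Gapdh, Pgk1, Eno1, Pkm and Ldha, were followed in microglia after a single dose of ATV:4D9. They were taken by name, 10 of the 32372 genes in the matrix, and 10 of 10 passed the filter on low counts that left 14260 genes for testing. The 4D9 part of ATV:4D9 binds TREM2, a lipid-sensing receptor of microglia, and its antibody transport vehicle (ATV) has an Fc that binds the human transferrin receptor. ATV:RSV carries a control antibody in that format. All 15 mice were male C57BL/6J animals of 3.5 months with the hTfR KI genotype, in which the apical domain of the human transferrin receptor sits in the mouse locus. Each received 10 mg/kg once. ATV:RSV mice were taken at day 1 and ATV:4D9 mice at day 1, 7, 14 or 28, so that 5 groups of 3 mice arose, and every one of the 3 batches contained all 5 groups. Days 7, 14 and 28 share the 3 ATV:RSV mice of day 1 as their control. CD45 bead-enriched cells of cortex and hippocampus were profiled with a 3′ kit that counts unique molecular identifiers (UMIs).

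Glycolysis splits glucose into pyruvate in the cytosol and yields ATP without oxygen. Its upper steps spend ATP to trap and cleave the sugar, its lower steps return ATP, and lactate dehydrogenase can then turn pyruvate into lactate while regenerating NAD+. Microglia use both glycolysis and mitochondrial respiration, and activated macrophages are known for raising glycolysis. Transcription of several of these enzymes is known to respond to the hypoxia-inducible factor and to MYC, which bind short DNA motifs.

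Promoter windows from 250 bases before to 50 bases after the annotated start were read from RefSeq (GRCm38.p6) for 10 of 10 members, 16 windows in all. The motif ACGTG, the core of the hypoxia response element, was searched on both strands, and so was the E-box CACGTG, which contains it. ACGTG was present in at least 1 window of 6 of 10 members, where 21.8% of the 27025 genes with a window hold it, and CACGTG in 1 of 10 members, where 8.09% of genes hold it. By window ACGTG was in 7 of 16, against 19.6% of 32851 windows, and CACGTG in 1 of 16, against 7.15%. The 7 include overlapping Aldoa windows with the same site. Gpi1, Pfkp, Tpi1 and Eno1 held no match of ACGTG, and the background was not matched for base content. The 4 windows below are those of the 16 that hold 2 or more matches of ACGTG, and are shown for where these lie. Capitals mark ACGTG or its reverse complement, sequences run 5′ to 3′ along the gene, and a match of letters says nothing on binding.
Ldha, chr7:46845554-46845853, plus strand: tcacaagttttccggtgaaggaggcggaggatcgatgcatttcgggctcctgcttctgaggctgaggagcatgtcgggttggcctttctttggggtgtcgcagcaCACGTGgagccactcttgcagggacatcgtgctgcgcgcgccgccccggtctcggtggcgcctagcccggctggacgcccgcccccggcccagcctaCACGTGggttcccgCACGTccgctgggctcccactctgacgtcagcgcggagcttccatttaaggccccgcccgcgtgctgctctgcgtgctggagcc
Pgk1, chrX:106186850-106187149, plus strand: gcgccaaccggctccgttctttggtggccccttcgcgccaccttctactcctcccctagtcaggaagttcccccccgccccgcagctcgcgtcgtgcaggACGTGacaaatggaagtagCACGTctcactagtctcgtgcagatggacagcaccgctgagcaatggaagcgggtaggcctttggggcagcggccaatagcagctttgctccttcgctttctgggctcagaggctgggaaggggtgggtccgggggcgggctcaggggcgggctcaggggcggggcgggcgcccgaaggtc
Pkm, chr9:59656977-59657276, plus strand: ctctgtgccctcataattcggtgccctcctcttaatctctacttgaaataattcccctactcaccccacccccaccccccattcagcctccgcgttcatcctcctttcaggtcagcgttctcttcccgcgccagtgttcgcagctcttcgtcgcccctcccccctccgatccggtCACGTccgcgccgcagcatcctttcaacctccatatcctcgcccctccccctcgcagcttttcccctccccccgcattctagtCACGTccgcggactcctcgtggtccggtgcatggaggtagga
Hk2, chr6:82774405-82774704, minus strand: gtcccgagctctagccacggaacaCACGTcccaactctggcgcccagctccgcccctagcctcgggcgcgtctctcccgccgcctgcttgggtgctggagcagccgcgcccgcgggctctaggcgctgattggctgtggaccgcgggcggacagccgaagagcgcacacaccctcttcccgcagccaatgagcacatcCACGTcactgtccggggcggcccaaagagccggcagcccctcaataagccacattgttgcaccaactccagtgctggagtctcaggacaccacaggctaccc
The Ldha window holds 5 matches of ACGTG, 4 of which come from its 2 palindromic E-boxes, and a second RefSeq window of Ldha, chr7:46846832-46847131, holds 0. Pgk1, Hk2 and this window of Pkm hold 2 each, and a second window of Pkm, chr9:59656326-59656625, holds 0. Both Ldha windows lie inside the mm10 gene model, which starts at position 46841475.

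The sum over all cells of a mouse came to 32341960 to 70307384 UMIs, from 5667 to 7596 cells. Cells of treated day 1 were deeper, with a median of 8201.5 to 8995.5 UMIs per cell against 4975 to 5750 in ATV:RSV. They also differed in the values that follow. Cells with a UMI of the proliferation genes Mki67 or Top2a were 19.6% to 27.4% of the cells of a treated day 1 mouse and 0.397% to 0.684% of those of an ATV:RSV mouse, and mitochondrial UMIs were 4.12% to 4.61% against 3.43% to 3.72%. The 7 microglia markers summed to 12610 to 14080 CPM, counts scaled to a common library total, at day 1 and 18480 to 19870 CPM in ATV:RSV. The markers of monocytes (5 of 5 detected) summed to 13.9 to 18.0 CPM against 4.51 to 11.5 CPM, those of border-associated macrophages (6 of 6) to 16.8 to 24.3 CPM against 16.2 to 19.6 CPM, and those of astrocytes (5 of 5) to 114 to 118 CPM against 218 to 267 CPM. Markers of neurons (4.90 to 6.70 against 9.74 to 13.3 CPM), oligodendrocytes (28.3 to 31.0 against 46.3 to 61.3 CPM) and endothelial cells (8.75 to 12.96 against 19.1 to 25.3 CPM) were also lower at day 1 without overlap. Cells with 3 or more markers of another type were 1.04% to 1.17% of a day 1 mouse and 0.463% to 0.670% of an ATV:RSV mouse. These were counted without thinning, so the greater depth of day 1 cells enters this share. One day 7 mouse carried neutrophil markers at 141 CPM, and erythrocyte markers ranged from 9.67 to 387 CPM among the ATV:RSV mice and from 1.93 to 33.1 CPM at day 1. A barcode sequence occurred in 2 or more mice for 1283 of 100747 distinct barcodes. Levels below are CPM scaled by TMM, the trimmed mean of M values, which is relative to the other transcripts of a mouse, so a sum over cells does not separate more cells with a transcript from more transcript per cell.

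At day 1 of ATV:4D9, 9 of the 10 enzyme transcripts were higher than in ATV:RSV, and Hk2 was the exception. The size of the rise differed between enzymes: Pgk1, Pkm, Tpi1, Gapdh and Ldha rose 3.78- to 4.86-fold, Aldoa and Eno1 2.53- and 2.54-fold, and Gpi1 and Pfkp 1.79- and 1.78-fold. Calls are at a Benjamini-Hochberg adjusted p under 0.05 in limma-voom over all 14260 genes. The background was high, since 69.2% of all genes were called at this day and 34.7% were called higher. Called and at least 2-fold higher were 7 of 10 members and 12.8% of all genes. The median log2 fold change was 1.63 over the members and -0.05 over all genes.

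**Figure D1:**
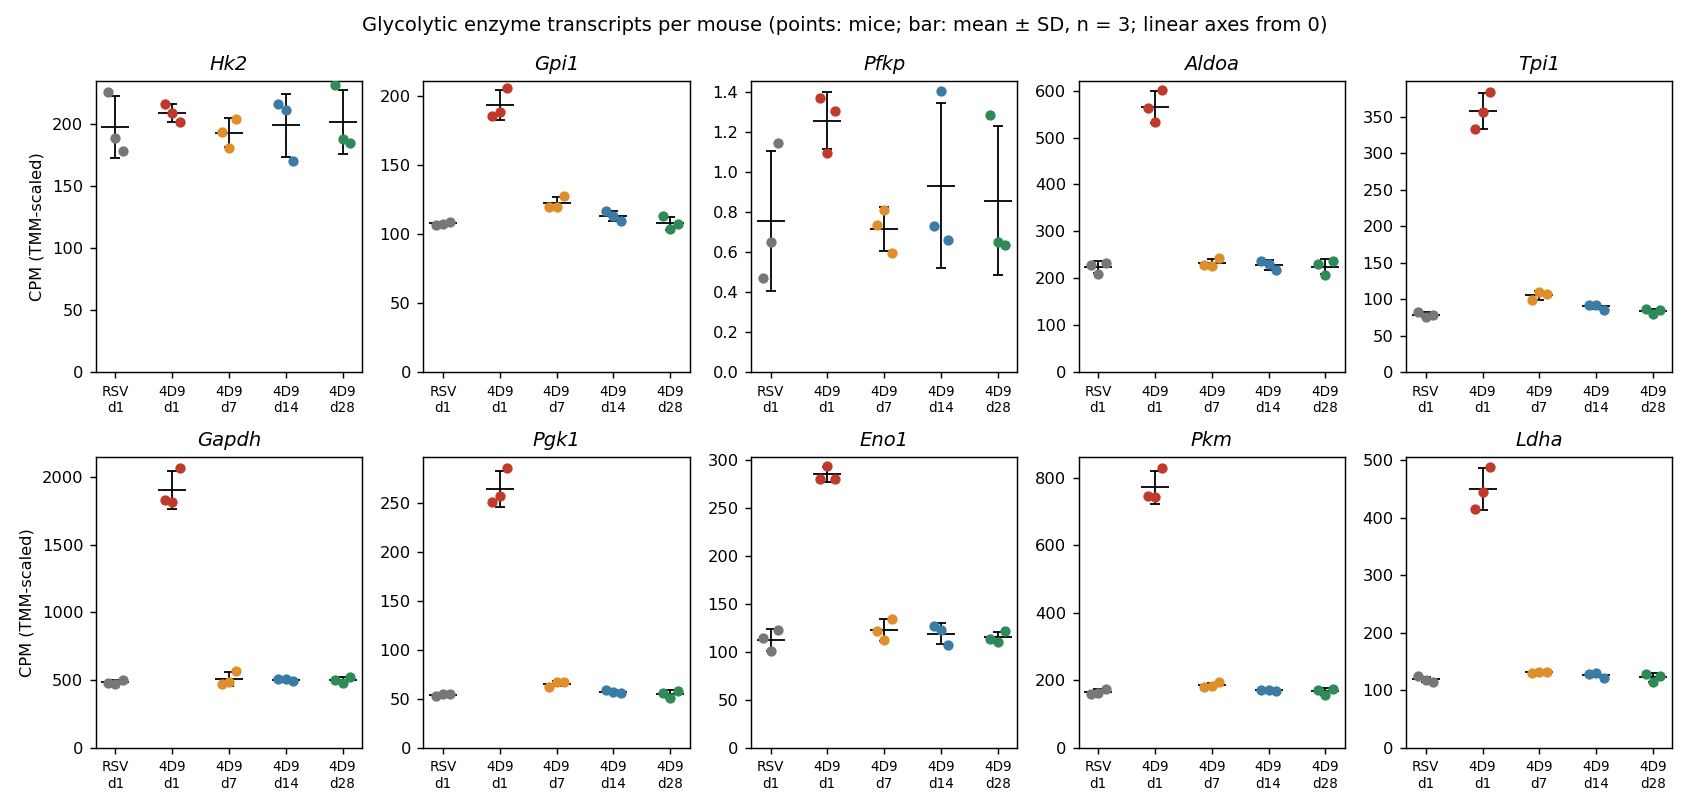
Level of each enzyme transcript (CPM, TMM-scaled, linear axes from 0) in the 15 mice by group, with points for mice and bars for mean ± SD of 3 mice. In 8 of the 10 panels the 3 day 1 mice of ATV:4D9 lie above every ATV:RSV mouse. Hk2 overlaps between all groups, and Pfkp stays under 1.5 CPM.

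The enzymes are taken in the order of the pathway. Hexokinase 2 (Hk2, chromosome 6, 82725025 to 82774454, minus strand), the inducible enzyme that traps glucose as glucose 6-phosphate, stood at 226, 188 and 178 CPM in the ATV:RSV mice of batches 1, 2 and 3 and at 216, 209 and 202 CPM at day 1. The groups overlapped, with the highest ATV:RSV mouse above every treated one. The log2 fold change of Hk2 was 0.09 (SE 0.10, 95% interval -0.13 to 0.31, adjusted p = 0.459), so a rise beyond 1.24-fold lies outside the interval. Its sign followed the scaling, being -0.15 when libraries were scaled by their size alone. Within batches the difference was -0.06, 0.15 and 0.18 on the log2 scale.

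Glucose 6-phosphate isomerase (Gpi1, chromosome 7, 34201330 to 34230336, minus strand), which makes fructose 6-phosphate, read 107, 108 and 109 CPM in ATV:RSV and 186, 188 and 206 CPM at day 1. All treated mice lay above all controls, with a log2 fold change of 0.84 (SE 0.05, adjusted p = 4.41e-10). Pfkp, the platelet isoform of phosphofructokinase, catalyses the committed step and was barely detected, with 23 to 48 UMIs in an ATV:RSV mouse and 61 to 87 at day 1. Its levels were 0.470, 0.651 and 1.15 CPM in ATV:RSV and 1.37, 1.09 and 1.31 CPM at day 1. Here the groups overlapped, the log2 fold change of 0.83 had an SE of 0.33 (adjusted p = 0.0328), and the call was lost in 10 of 26 alternative fits, 4 of which left out a single mouse (ATV:RSV replicate 1 or 2, or day 1 replicate 1 or 3), with adjusted p from 0.0109 to 0.410 over the 26. Without ATV:RSV replicate 1 the log2 fold change of Pfkp itself fell to 0.52, and without the other 3 mice named it was 0.77 to 0.81. Pfkp (chromosome 13, 6579768 to 6648777) overlaps Pitrm1 on the other strand. Aldolase A (Aldoa, chromosome 7, 126795234 to 126800751, minus strand), which cleaves fructose 1,6-bisphosphate, rose from 229, 209 and 232 CPM to 562, 532 and 601 CPM, a log2 fold change of 1.34 (SE 0.06, adjusted p = 3.02e-11) with no overlap between the groups. A second annotation of the symbol on the same chromosome, 126800790 to 126809108, may correspond to a separate matrix entry that held at most 11 UMIs in a mouse.

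From Tpi1 to Ldha every member rose and no treated mouse overlapped a control. Triosephosphate isomerase (Tpi1, chromosome 6, 124810586 to 124814296, minus strand), which lets both products of the cleavage enter the payoff phase, went from 81.8, 75.7 and 78.1 CPM to 333, 356 and 383 CPM (log2 fold change 2.18, SE 0.06, adjusted p = 7.31e-14). Glyceraldehyde 3-phosphate dehydrogenase (Gapdh, chromosome 6, 125161715 to 125166467, minus strand), which makes NADH and is often taken as a reference transcript, went from 481, 472 and 498 CPM to 1832, 1818 and 2068 CPM (log2 fold change 1.98, SE 0.07, adjusted p = 8.24e-13). Both shifts were larger than the spread among mice. Phosphoglycerate kinase 1 (Pgk1, chromosome X, 106187100 to 106203699, plus strand), the first ATP-yielding step, read 53.1, 54.6 and 55.3 CPM in ATV:RSV and 251, 257 and 285 CPM at day 1, a log2 fold change of 2.28 (SE 0.06, adjusted p = 6.15e-14) that was the highest of the 10.

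Enolase 1 (Eno1, chromosome 4, 150236721 to 150248879, plus strand), which forms phosphoenolpyruvate, moved from 114, 100 and 122 CPM to 281, 294 and 280 CPM, a log2 fold change of 1.35 (SE 0.08, adjusted p = 5.17e-10). This rise was close to that of Aldoa. A near-identical gene, Eno1b, held 31 to 155 UMIs per mouse, so reads shared by both copies could be lost or split. Pyruvate kinase (Pkm, chromosome 9, 59656368 to 59679375, plus strand), the second ATP-yielding step, went from 160, 162 and 174 CPM to 747, 742 and 829 CPM (log2 fold change 2.23, SE 0.05, adjusted p = 4.19e-14), and the gene counts do not separate its spliced isoforms. Lactate dehydrogenase A (Ldha, chromosome 7, 46841475 to 46855627, plus strand), which reduces pyruvate to lactate, went from 124, 118 and 114 CPM to 415, 445 and 487 CPM (log2 fold change 1.92, SE 0.06, adjusted p = 4.56e-13). For 8 members every batch showed the rise on its own with no treated mouse below a control, where 35.7% of all genes were higher without overlap. Ranked by log2 fold change among the 14260 genes, Pgk1 was at 527, Pkm at 550, Tpi1 at 565, Gapdh at 669 and Ldha at 694.

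**Figure D2:**
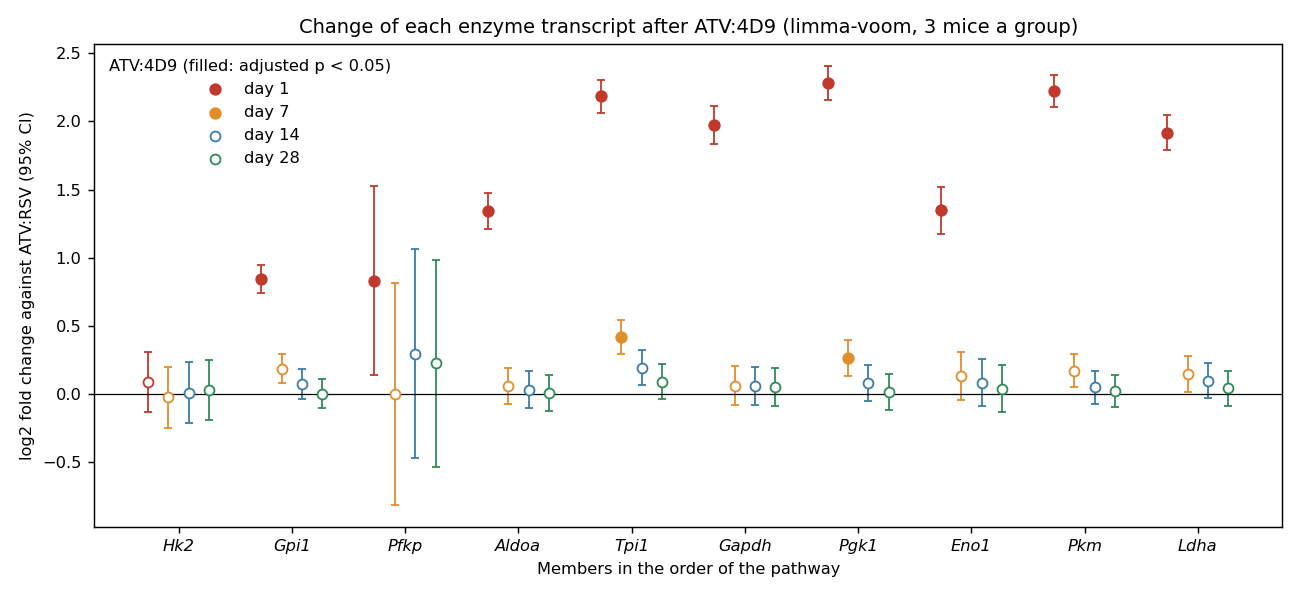
Log2 fold change against ATV:RSV (points, with 95% intervals, limma-voom) for the 10 members in pathway order at the 4 days, filled where the adjusted p is under 0.05. Day 1 is filled for 9 members, day 7 for Tpi1 and Pgk1, and days 14 and 28 for none. The wide intervals of Pfkp come with its low counts.

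The rise was also measured at equal depth and without cycling cells. With each cell thinned to 3385 UMIs before summing, 8 of 10 members were called higher, where 33.5% of the 13025 genes tested were, with a median log2 fold change of 1.49, and Pfkp was the call that was lost (adjusted p = 0.113). Without cells carrying a Mki67 or Top2a UMI, the share of UMIs from the 10 members rose by 0.285 percentage points at day 1, and by 0.285 with them. Scaling mattered for the size of the shift. With library size alone as the scale, all genes had a median log2 fold change of -0.29, and the split of calls went to 25.9% higher and 48.8% lower, from 34.7% and 34.6%. Under that scaling 8 of 10 members were called higher with a median log2 fold change of 1.39, and Pfkp was again the one lost (adjusted p = 0.110).

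At day 7 the differences from the ATV:RSV mice of day 1 were small. Tpi1 and Pgk1, 2 of 10 members, were called higher than in ATV:RSV, where 3.98% of all genes were called and 2.99% were called higher. Tpi1 read 98.7, 109 and 107 CPM, above all 3 ATV:RSV mice, with a log2 fold change of 0.42 (SE 0.06, adjusted p = 0.000414). Pgk1 read 62.3, 67.0 and 66.7 CPM, also above all 3 controls, with a log2 fold change of 0.27 (SE 0.06, adjusted p = 0.0214). The call of Pgk1 was less firm, being lost in 7 of 28 alternatives: with library-size scaling (adjusted p = 0.0720), in cluster 0 or cluster 2 cells alone, and on leaving out ATV:RSV replicate 1 or 2 or day 7 replicate 2 or 3 (adjusted p 0.0708 to 0.108), with adjusted p between 0.00218 and 0.324 over the 28. Tpi1 was lost in 1 of 28, that of the few cluster 2 cells (log2 fold change 0.54, adjusted p = 0.235). Where a single mouse was left out and the call of Pgk1 lost, its log2 fold change was 0.25 to 0.27, and in cluster 2 cells it was 0.50. Gpi1 read 120, 120 and 128 CPM against 107 to 109 CPM and missed the threshold (log2 fold change 0.19, adjusted p = 0.0518), which it passed in 6 of 28 alternatives. With the batch as a replicate block 4 members were called, where 7.11% of all genes were, Gpi1 (adjusted p = 0.0296) and Pkm (0.0253) joining them. In all, 5 of 10 members (Gpi1, Tpi1, Pgk1, Pkm and Ldha) were higher with no overlap, against 11.0% of all genes. Gapdh, by contrast, overlapped the controls at 470, 483 and 564 CPM (log2 fold change 0.06, adjusted p = 0.706).

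The return from day 1 to day 7 was itself called for 9 of 10 members, all lower, where 66.9% of all genes were called and 33.9% were called lower. All 9 were lower in every day 7 mouse than in any day 1 mouse, against 35.2% of all genes. Pkm fell by 2.06 and Pgk1 by 2.02 on the log2 scale. Pfkp (-0.83, adjusted p = 0.0386) lost its call in 11 of 26 alternatives, 5 of them without a single mouse (day 1 replicate 1 or 3, or day 7 replicate 1, 2 or 3), with adjusted p from 0.0231 to 0.406 over the 26. Hk2 was again not called (-0.11, adjusted p = 0.346). Between day 7 and day 14, 0 of 10 members were called with limma-voom, where 0.912% of all genes were, and 4 of 10 had an unadjusted p under 0.05 against 7.91% of genes. These 4, Gpi1, Tpi1, Pgk1 and Pkm, were also lower in every day 14 mouse than in any day 7 mouse, against 7.69% of all genes. Tpi1 was the only member called in another fit, by DESeq2, at a log2 fold change of -0.23 (adjusted p = 0.0291).

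At day 14 and day 28, 0 of 10 members were called against ATV:RSV with limma-voom, and 0 of 10 by DESeq2 and edgeR. Over all genes 0.400% and 0.00% were called by limma-voom. At an unadjusted p under 0.05 stood 1 member at day 14, Tpi1, and 0 members at day 28, where 5.40% and 4.00% of all genes did. Tpi1 read 91.4, 92.5 and 85.6 CPM at day 14, above all controls (log2 fold change 0.19, adjusted p = 0.387), and 85.8, 80.1 and 84.8 CPM at day 28, overlapping them (0.09, adjusted p = 0.9998). At day 14 Gpi1 and Pgk1 also lay above the controls without overlap, 3 of 10 members against 5.29% of all genes, and at day 28 no member did, against 4.59%. With Pfkp left aside, the 95% intervals at day 28 ran from -0.19 to 0.25 on the log2 scale for the other 9 transcripts. For Pfkp the interval was -0.53 to 0.99. Each interval is taken singly and holds for sums over all cells against the day 1 controls. In the 84 to 140 cluster 2 cells of a day 28 mouse the median log2 fold change over 9 members tested was 0.39, with 0 called.

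Summed, the 10 transcripts made up 0.163% ± 0.00423 (SD, n = 3) of the UMIs of an ATV:RSV mouse and 0.448% ± 0.0186 at day 1 of ATV:4D9. The 3 day 1 mice were at 0.437%, 0.437% and 0.469% and the controls at 0.166%, 0.158% and 0.165%. At days 7, 14 and 28 the single mice ran from 0.157% to 0.176%, on both sides of the range of the controls, with means of 0.165% ± 0.00999, 0.164% ± 0.00436 and 0.165% ± 0.00738. In absolute counts a cell held 10.05 ± 0.947 UMIs of the 10 enzymes in ATV:RSV and 41.7 ± 1.38 at day 1, and the cells themselves were deeper by the values above. Gapdh supplied 31.4% of the members' UMIs in ATV:RSV and 38.1% at day 1, while the share of Hk2 went from 12.8% to 4.19%, so the proportions among the enzymes shifted along with their sum.

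**Figure D3:**
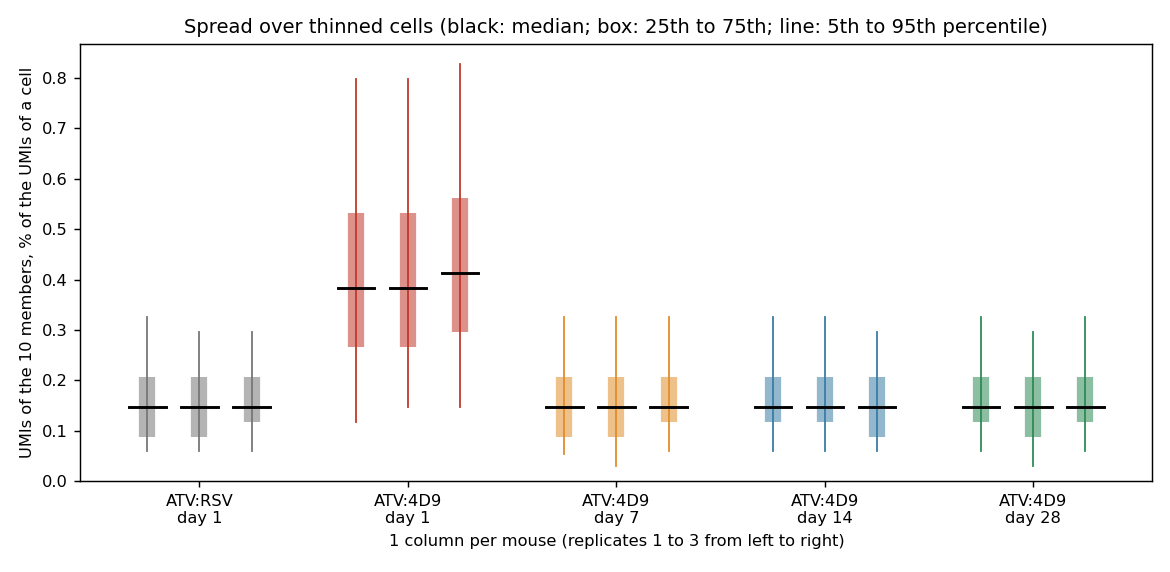
Share of UMIs from the 10 members per cell (percent, cells thinned to 3385 UMIs) in each of the 15 mice, with the median as a black bar, the 25th to 75th percentile as a box and the 5th to 95th as a line. The 3 day 1 medians are 0.384%, 0.384% and 0.414%, and the other 12 are 0.148%. Shares move in steps of 1 UMI in 3385, so smaller differences of a median do not show.

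Cell by cell, most cells of day 1 held a higher share of UMIs from these enzymes. The UMIs that free RNA adds to a droplet were not estimated, and the part of free RNA in the shares per cell was not tested. Every cell was thinned to 3385 UMIs, the 10th percentile of all cells, which left out 10204 of 102043 cells and 3.93% to 17.8% of those of a mouse. The median cell of a day 1 mouse had 0.384% to 0.414% of its UMIs from the 10 enzymes, and that of each ATV:RSV mouse 0.148%. These shares move in steps of 1 UMI in 3385, so equal medians can hide smaller differences between mice. Cells above the 95th percentile of the ATV:RSV mouse of their own batch were 57.1%, 66.2% and 70.7% of the cells of the day 1 mice. They were 3.37% to 7.40% of those of the later mice and 3.67% to 4.65% of those of the ATV:RSV mice themselves. Because of the same steps this percentile was 0.325% in batch 1 and 0.295% in batches 2 and 3, so the batches had unlike cuts. The 10th percentile of day 1 cells lay at 0.177% to 0.207%, above the ATV:RSV median. A median of 6 of the 10 enzymes was detected per thinned cell at day 1 and 3 or 4 in every other mouse, and cells with 8 or more were 12.3% to 14.0% at day 1 and 0.430% to 1.05% elsewhere.

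Detection differed by enzyme. A UMI of Pkm was present in 83.4% ± 1.69 (SD, n = 3) of thinned day 1 cells and 42.8% ± 1.54 of ATV:RSV cells, one of Ldha in 65.3% ± 2.99 and 33.5% ± 0.887, and one of Pgk1 in 48.6% ± 1.35 and 16.8% ± 0.307. Gapdh, already present in 78.5% ± 0.585 of ATV:RSV cells, reached 98.0% ± 0.535. Hk2 went the other way at this fixed depth, from 49.2% ± 3.87 to 44.7% ± 2.13, with groups that overlapped. Within batches 1, 2 and 3 it went from 53.6% to 46.9%, from 47.7% to 44.7% and from 46.2% to 42.6%. In unthinned cells Hk2 was detected in 65.1% and 72.7%. Its sign therefore depends on whether depth is fixed. Pfkp was found in 0.260% of ATV:RSV cells and 0.370% of day 1 cells, so few that no order is read from it. Within single mice the members' thinned counts were more correlated across cells at day 1, with a median Pearson r over the 45 pairs of 0.114 to 0.132 against 0.0180 to 0.0567 in the other 12 mice, and Gapdh with Pkm the closest pair at 0.311 to 0.353. The level of this pair per thinned cell was also higher at day 1. Gapdh had 5.247 to 5.885 UMIs against 1.679 to 1.74 in ATV:RSV, and Pkm 2.117 to 2.326 against 0.5537 to 0.5993. The r of counts depends on their level, and the part of the level in the higher r was not tested. The correlations are descriptions across the cells of 1 library, weak in sparse counts.

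Cycling and other cells of day 1 differed little. The share of UMIs from the 10 enzymes in cells with a Mki67 or Top2a UMI was 0.433%, 0.434% and 0.471% in the 3 day 1 mice, and in the remaining cells 0.438%, 0.439% and 0.468%, although the cycling cells were deeper (median 10313.5 to 11378.5 against 7587.5 to 8418.0 UMIs). On the log2 scale the mean difference was -0.01 ± 0.02 (SD, n = 3). Single enzymes departed from this in both directions. Hk2 (-0.25 ± 0.02) and Aldoa (-0.27 ± 0.04) were lower in the cycling cells of all 3 mice, as were by less Tpi1 (-0.05 ± 0.04) and Ldha (-0.01 ± 0.00480), and Pgk1 (0.11 ± 0.04), Pkm (0.06 ± 0.01) and Gapdh (0.05 ± 0.01) were higher in all 3.

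The deposited cell table assigns the cells to clusters 0, 1 and 2, and these enzymes were among the genes available to the clustering, so differences between clusters are description. Cluster 2 held 5607 to 6597 cells of each day 1 mouse and 76 to 165 of each ATV:RSV mouse. In cluster 2 the 10 enzymes made up 0.460% ± 0.0151 (SD, n = 3) of UMIs at day 1, 0.273% ± 0.0480 in ATV:RSV and 0.292% to 0.309% on average at the later days. The few cluster 2 cells outside day 1 thus stood above the cluster 0 and cluster 1 cells of their own mice and below the day 1 cells. In clusters 0 and 1 the ATV:RSV shares were 0.165% ± 0.00554 and 0.150% ± 0.00422, and the 211 to 383 and 180 to 555 day 1 cells left in them were at 0.218% ± 0.0113 and 0.211% ± 0.00858.

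**Figure D4:**
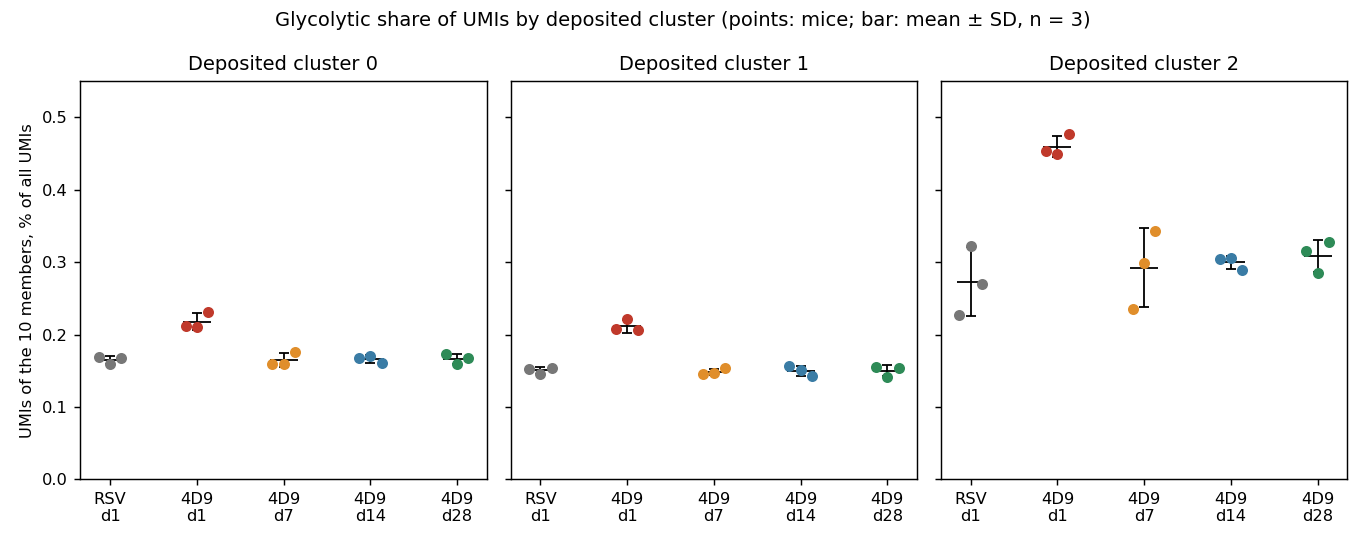
Share of UMIs from the 10 members (percent of all UMIs) in the cells of each deposited cluster, with points for mice and bars for mean ± SD of 3 mice. In every cluster the 3 day 1 mice of ATV:4D9 lie above all other mice, and cluster 2 is above clusters 0 and 1 in every group.

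Within clusters the day 1 difference was smaller, and it was called for part of the pathway. Cells were assigned to clusters by their expression after treatment, so the size and calls of differences within a cluster are descriptions too. In cluster 0 the members called at day 1 were Pkm (log2 fold change 0.77), Gapdh (0.63), Pgk1 (0.58) and Tpi1 (0.39), 4 of 10, where 5.09% of the genes tested there were called. In cluster 1 they were Pkm (0.86), Gapdh (0.78), Pgk1 (0.72), Ldha (0.52), Eno1 (0.41) and Tpi1 (0.36), 6 of 9 tested, against 9.18%. In cluster 2 it was 8 of 9, all but Hk2, against 36.8%, led by Pgk1 (1.10), Pkm (1.09) and Gapdh (1.04). The cluster 2 cells of both groups differed in other ways, with Mki67 at 99.6 ± 34.5 CPM (without TMM) in ATV:RSV and 46.6 ± 13.7 at day 1, and Top2a at 111 ± 30.9 and 72.4 ± 16.0, the reverse of the order over all cells. Their part in the result was not tested. Pkm, Gapdh, Pgk1 and Tpi1 were called in all 3 clusters and Hk2 in none. Gpi1 and Aldoa were called in cluster 2 and not in the others, with -0.06 and 0.11 in cluster 0. The difference between clusters was not tested. At day 7 Tpi1 was called in cluster 0 (0.33) and cluster 1 (0.45), and Gpi1 (0.31) and Pgk1 (0.28) in cluster 1. These were 1 of 10 members in cluster 0 and 3 of 9 in cluster 1, where 4.28% and 5.76% of the genes tested were called, and in cluster 2 it was 0 of 9, where 0.693% were.

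Several of these enzymes have isoenzymes that serve the same step, and the ratio of both within a mouse is free of library scaling. UMIs near the 3′ end were not divided by length, so only changes of a ratio are read. Ldha over Ldhb, the form known for favouring lactate oxidation, had a log2 ratio of -2.12, -2.28 and -2.41 in ATV:RSV and -0.29, 0.04 and 0.04 at day 1, a difference of 2.20. Ldhb itself fell from 573 ± 33.8 to 472 ± 36.7 CPM (log2 fold change -0.28, adjusted p = 0.000707) while Ldha rose. At day 7 the ratio was -2.17, -2.26 and -2.27, within the range of the controls.

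Eno1 over Eno2, the neuronal form, gained 2.10 at day 1, Aldoa over Aldoc 1.63, Pfkp over Pfkm 0.75 and Hk2 over Hk1 0.61, each higher in all 3 day 1 mice than in any control. The remaining pairs overlapped, Hk2 over Hk3 (-0.15), which was lower at day 1 within every batch, and Pfkp over Pfkl (-0.09). On leaving out 1 mouse the first ranged from -0.28 to -0.05 and the second from -0.39 (without ATV:RSV replicate 1) to 0.29 (without ATV:RSV replicate 3), which turned its sign. For the 5 separated pairs an exact two-sided permutation test gave p = 0.1, the smallest that 3 mice against 3 allow, and 0.14 after adjustment over the 7 pairs, so this test cannot call them. At day 7 Eno1 over Eno2 was 0.86 and Aldoa over Aldoc 0.51 above ATV:RSV, both with no overlap (exact p = 0.1, adjusted p = 0.35). At day 14 Aldoa over Aldoc was 0.41 above it with no overlap (exact p = 0.1, adjusted p = 0.7). Neither member was called at these days. Their log2 fold changes were 0.13 (Eno1) and 0.06 (Aldoa) at day 7 and 0.03 (Aldoa) at day 14. The partners, also not called, were at -0.73 (Eno2) and -0.445 (Aldoc) at day 7 and -0.39 (Aldoc) at day 14. At day 1 Hk1 fell (log2 fold change -0.52, adjusted p = 7.47e-06), which moved the Hk2 ratio with Hk2 itself uncalled. Pfkl, the liver-type phosphofructokinase, rose from 68.8 ± 3.55 to 129 ± 4.25 CPM at that day (0.90, adjusted p = 3.43e-09). Eno2 was scarce, with as few as 22 UMIs in a mouse, and Pfkm had as few as 49. From ATV:RSV to day 1 Eno2 went from 1.255 to 0.7425 CPM and Aldoc, not called, from 3.986 to 3.356 CPM. The markers of neurons and astrocytes given above were also lower at day 1. At day 7 those of neurons were again lower without overlap, at 6.525 to 7.575 CPM against 9.739 to 13.31 CPM in ATV:RSV. Those of astrocytes overlapped the controls at days 7 and 14. The part of RNA from other cells in these ratios was not tested.

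**Figure D5:**
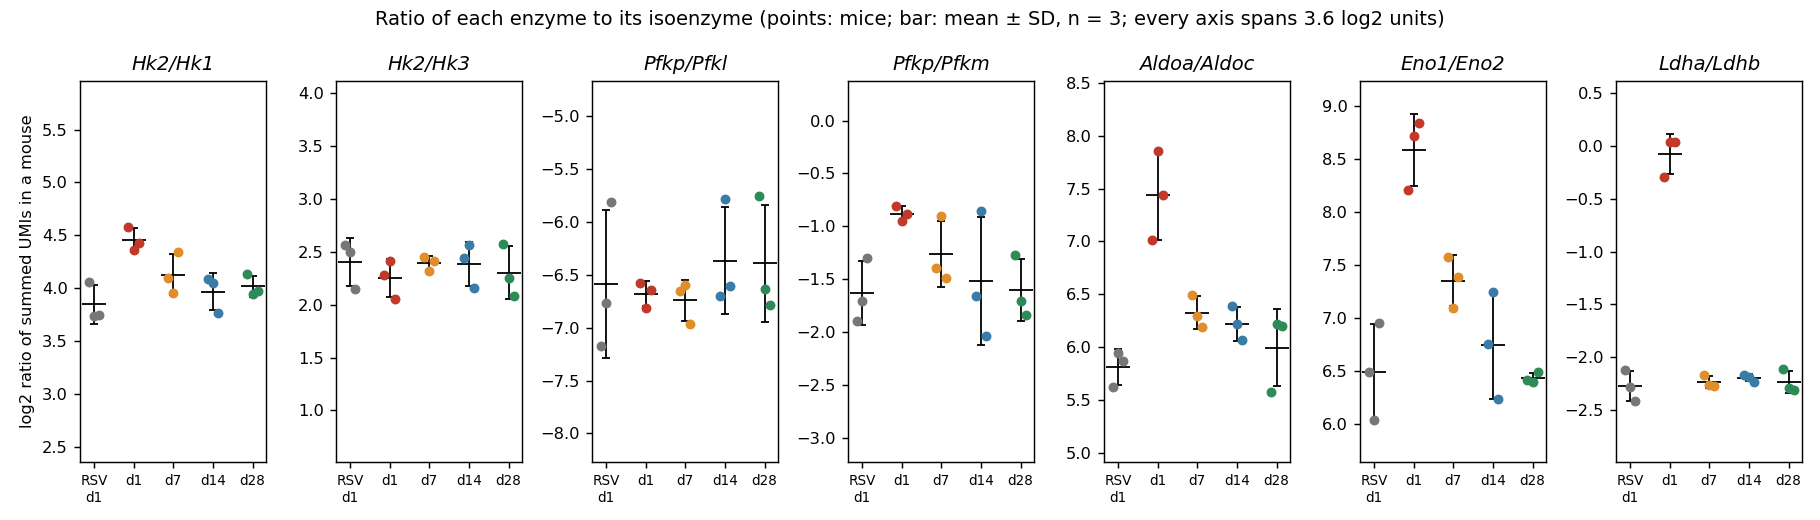
Log2 ratio of summed UMIs of each member to its isoenzyme in the 15 mice (points) with mean ± SD of 3 mice, on axes that all span 3.6 log2 units. Ldha over Ldhb moves from about -2.27 on average in ATV:RSV to -0.07 at day 1 and back, and Hk2 over Hk3 overlaps in all groups.

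The remaining genes around the pathway were grouped in lists by function. Over all lists 76 of 101 tested genes were called at day 1, 75.2%, where 69.2% of all genes were, with 34.7% of all genes higher and 34.6% lower. Among 20 other glycolytic isoenzymes and step enzymes, 13 were tested, 4 rose and 6 fell at day 1, with a median log2 fold change of -0.30. Pgam1, the phosphoglycerate mutase between Pgk1 and Eno1, rose most (1.54, 118 ± 4.73 to 344 ± 18.0 CPM), followed by the ADP-dependent glucokinase Adpgk (1.08), and Ldhd (-0.92) and Eno2 (-0.73) fell most. The regulators of fructose 2,6-bisphosphate, the activator of phosphofructokinase, were split, 2 higher and 2 lower of 5: Pfkfb1 (1.42, at 0.778 CPM) and Tigar (1.23) rose, and Pfkfb4 (-0.89) and Pfkfb2 (-0.85) fell. Of 9 glucose and lactate transport genes 5 rose and 3 fell. The glucose transporter gene Slc2a6 (5.43, 0.605 ± 0.251 to 25.7 ± 2.14 CPM) and the lactate exporter gene Slc16a3 (2.09, 27.1 ± 2.21 to 115 ± 3.37 CPM) rose most, while the fructose transporter gene Slc2a5 (-1.15) and Slc2a8 (-0.58) fell.

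Genes of the branches fed by glycolysis moved with a split that depended on the scaling. The shares of all genes to set beside them are 34.7% higher and 34.6% lower with TMM, and 25.9% and 48.8% with library-size scaling. In the pentose phosphate pathway 6 of 9 genes rose and 0 fell, led by the transketolase Tkt (1.21) and Pgls (0.76), with H6pd (-0.08) and Shpk (-0.40) not called, and under library-size scaling 5 rose and 2 fell. Of 12 tested genes of pyruvate dehydrogenase and mitochondrial pyruvate import 7 rose and 2 fell, which became 4 and 3 under library-size scaling. Here the kinase gene Pdk3 (1.28) and the pyruvate carrier gene Mpc1 (0.68) rose most, and Pdk2 (-1.50), another kinase that switches the complex off, and the phosphatase gene Pdp2 (-0.36) fell. Gluconeogenesis and glycogen genes were 7 higher and 4 lower of 13 tested, or 6 and 6 under library-size scaling, with Pgm1 (1.20) and Pcx (0.99) highest and Pygm (-0.76) lowest.

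The transcription factors known to act on these enzymes, and other targets, were mixed. Hif1a, the oxygen-regulated subunit of the hypoxia-inducible factor, named here after its values were seen, rose from 77.5 ± 1.37 to 122 ± 6.93 CPM at day 1 (log2 fold change 0.65, adjusted p = 8.22e-07), with no overlap. For the hypoxia-inducible factor and its targets outside glycolysis 8 of 16 rose and 4 fell: Adm (3.44, 0.0697 to 0.789 CPM) and Vegfa (3.10, 1.13 ± 0.435 to 9.45 ± 2.65 CPM) rose most, and Ddit4 (-2.70) and the partner subunit Arnt (-0.84) fell most. Of 8 tested genes around MYC 1 rose, Max (0.33), and 5 fell, Mycl (-3.34) and the antagonist Mnt (-0.86) furthest. Myc was not called (0.15, adjusted p = 0.386), and its sign turned under library-size scaling, where 0 of these 8 rose and 6 fell. Immediate early genes, which tissue dissociation is known to induce, were lower more often than higher at day 1, 9 fell and 1 rose of 16. Ier3 (1.14) rose, Hspa1a (0.93) was not called, and Egr2 (-1.04) and Jund (-1.02) fell furthest. Under library-size scaling the counts were 6 higher and 5 lower for the hypoxia list, 1 and 12 for the immediate early genes, 3 and 7 for the other glycolytic genes, and as before for the transport genes and the regulators of fructose 2,6-bisphosphate. Over all genes 25.9% were called higher and 48.8% lower under that scaling, and 34.7% and 34.6% with TMM.

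At day 7, 6 of the 101 list genes tested were called, 5.94%, where 3.98% of all genes were. They were split between both directions. The genes called, named here after their values were seen, were Slc16a3 (0.29) and Vhl (0.22), which were higher, and Slc2a5 (-0.36), Myc (-0.63), Hk1 (-0.32) and Jun (-0.25), which were lower. At days 14 and 28 none of the listed genes was called against ATV:RSV with limma-voom.

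Hk2 and Pfkp stood apart from the other enzymes across mice. Over the 15 mice the log2 level of Hk2 correlated with the mean of the other 9 members at a Pearson r of 0.294, that of Pfkp at 0.573, and those of the other 8 at 0.974 to 0.986, values that the day 1 mice dominate. Over the 12 mice outside day 1 of ATV:4D9, Hk2 was at 0.226, Pfkp at 0.119 and the other 8 at 0.599 to 0.855. The genes most like the mean of the members over all 15 mice were Lsm7 (r = 0.993), Aaas, Pop5, Atp5j and Farsb, out of 1498 of 12328 genes with r over 0.95. Over the 12 mice they were Pdcd1lg2 (0.939), Ctsh, Gabarap, Rint1 and Mrpl24. Pfkp had only 23 to 87 UMIs in a mouse, so counting error enters its r, and the part of this error was not tested. The points share batches, depth and the scaling of each mouse, and the values are descriptions with no test.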

How the data were processed

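Single-cell RNA sequencing of 15 mice was analysed from the deposited matrix of UMI counts per gene and cell and the deposited cell table with cluster, mouse and the percent of mitochondrial UMIs. The authors mapped reads to mm10 with Cell Ranger (version 4.0.0 in the submitters' processing notes, a later version in the study's reporting summary) and filtered and clustered cells in Seurat, and the thresholds of the cell filter are not given in the sources used here. The deposited counts were not normalized. Groups, doses and batches came from the labels, and no column belonged to another series.

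Members, lists, tests and alternatives were chosen with earlier results of these data known. Counts were added up per mouse, because cells are not replicates, filtered by filterByExpr (minimum count 10, minimum total 15) and TMM-scaled. The test was limma-voom, in 1 model with a mean for each group of the 15 mice (R 4.3.3 with limma 3.58.1 and edgeR 4.0.16), and used Benjamini-Hochberg adjustment over 14260 genes. The script was tested on simulated data in which few genes changed. That test does not cover a change as broad as that of day 1. CPM uses the TMM-scaled library size. Shares of UMIs in percent were computed from the deposited counts and carry counting error beyond the spread over mice shown. Cells were thinned at random to 3385 UMIs. Isoenzyme ratios had 0.5 UMIs added to each sum and were compared by exact two-sided permutation tests, 3 mice against 3.

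The text names all 10 members, the isoenzyme partners, the 2 highest and 2 lowest log2 fold changes of each list at day 1, and the 5 genes most like the members over 15 and over 12 mice. A gene that this rule names is not reported here. Each batch holds all 5 groups per the labels, so the batch pairs the mice: within a batch, what remained after subtracting group means had an average r of 0.0539 (30 pairs, -0.225 to 0.259) and -0.0267 between them (60 pairs). Positions are from GENCODE M21 (mm10) and promoters from RefSeq (GRCm38.p6). Doublets were not called, and leaving out the 5% of cells with most UMIs stood in for it. DESeq2 1.42.0, the edgeR quasi-likelihood test, other scalings, no filter, the batch as a replicate block, subsets of cells and leaving out each mouse were the alternatives.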

Additional observations from a re-analysis of the deposited data

Results flagged for a closer look

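The change from day 1 to day 7 of ATV:4D9 was tested as a contrast of its own and was called by limma-voom for 9 members. The treated mice of these 2 days thus differ in them. No ATV:RSV mice were taken at day 7, so the part of time alone was not tested. On the log2 scale the difference, day 7 minus day 1, was -0.66 for Gpi1, -0.83 for Pfkp, -1.28 for Aldoa, -1.77 for Tpi1, -1.92 for Gapdh, -2.02 for Pgk1, -1.22 for Eno1, -2.06 for Pkm and -1.77 for Ldha. The value of Pfkp rests on 26 to 87 UMIs per mouse and was called with an adjusted p of 0.0386, and edgeR (adjusted p = 0.0515) and the replicate block (adjusted p = 0.0521) did not call it.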

How the results depend on the processing

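Under the 28 alternatives 2144 values kept their side of the threshold or moved by less than the spread, 41 lost and 8 gained a call, 6 reversed and 53 moved further. The 2144 include 91 log2 fold changes of members that changed sign and were called on neither side. With the batch as a replicate block 4 members were called at day 7, and no other count of members moved by over 1.5 times in that fit. Scaling by library size left 1 member called at day 7. DESeq2 called 1 member, Tpi1, lower at day 14 than at day 7. Leaving out 1 mouse gave 8 to 9 members at day 1, 1 to 3 at day 7, 8 to 9 in day 7 against day 1 and 0 in the other comparisons. With cluster 0 cells alone the counts were 4 at day 1, 1 at day 7 and 3 in day 7 against day 1, with cluster 1 cells 5 in the last, 1 of them Gpi1 as higher, and with cluster 2 cells 0 at day 7, where fewer cells enter. Signs reversed in clusters for Gpi1, at -0.0586 at day 1 (cluster 0) and 0.18 (cluster 0) and 0.30 (cluster 1) for day 7 against day 1, and for Tpi1, at 0.10 (cluster 1). The cause was not tested. The rise of the members' share of UMIs at day 1, 0.285 percentage points, was 0.299 outside mitochondrial genes, 0.165 without Gapdh, 0.258 without Aldoa and 0.246 as a median over thinned cells. The median over members of the rise in percent of cells with a UMI was 20.6 percentage points at day 1 after thinning, 22.6 when thinned to the 5th percentile and 27.8 without thinning. Without thinning it was -0.00379 at day 7, 1.51 at day 14 and 2.58 at day 28, and with the 5th percentile -0.0619 at day 28, against 0.159, 0.267 and 0.00882.

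Over all genes the count called at day 7 was 568 and ranged from 331 (without ATV:RSV replicate 2) to 611 on leaving out 1 mouse, and it was 1199 with library-size scaling, 871 with DESeq2 and 1014 with the replicate block. At day 14 it was 57, with 0 (without day 14 replicate 1) to 59 on leaving out 1 mouse, 34 after thinning, 19 with library-size scaling, 132 with DESeq2 and 122 with the block. At day 28 it was 0, with 14 by DESeq2 and 2 with the block. Between days 14 and 7 it was 130, with 31 to 149 on leaving out 1 mouse 86 with library-size scaling and 242 by DESeq2. At day 1 it was 9872, and 679, 1101 and 3129 in the cells of clusters 0, 1 and 2, and in day 7 against day 1 9538, and 855, 1184 and 3638. In cluster 2 it was 59 at day 7 and 0 at day 14 and between days 14 and 7, and at day 14 it was 15 in cluster 0 and 141 in cluster 1. Pfkp had at most 87 UMIs in a mouse, and the sign of the Hk2 difference in cells with a UMI turned with the depth. With 3 mice against 3 the exact test of the ratios could not go below 0.1.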
